A study of Caenorhabditis elegans with 2 samples.

Results

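Chromatin immunoprecipitation of a GFP-tagged protein from Caenorhabditis elegans mid-embryos gave 235 sites on the X chromosome that lie away from small RNA genes, of 1490 sites in all. The sites come from the longer deposited list of peaks thresholded by irreproducible discovery rate (IDR), an estimate of how likely a peak is not to be found again. Its 1559 peaks merged into 1490 sites where they overlapped, and 345 of these lay on X. The 110 X sites whose strongest summit was within 200 bp of an annotated tRNA, snoRNA, snRNA or miRNA gene were set aside, and the other 235 are described here. They were thus selected on measured values, since a peak enters the list by how alike it ranks in peak sets from these libraries.

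The study has 1 group of 2 biological replicates of whole embryos, aged 3.5 hours and synchronised by egg bleaching, and no second condition. The animals are of strain OP787. In this strain an integrated transgene (wgIs787) carries T27A8.2 fused to TY1, EGFP and 3xFLAG, together with a working copy of unc-119, in an unc-119(tm4063) mutant background. The labels name tab-1, a homeobox gene on chromosome II, as the target, while the genotype puts the tag on T27A8.2, a gene on X. Both replicates are therefore called labelled tab-1. The precipitation used an antibody against GFP, and the signal averages over all cells of the embryos. A control experiment named in the labels was not used here. The reference for the X sites is the 908 sites on chromosomes I to V that pass the same distance filter. Ranked candidates outside the list form a second reference, with 11818 on X and 63813 on the autosomes. The number of reads behind each list is not given in the sources used here.

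In C. elegans the number of X chromosomes relative to autosomes sets sex. In hermaphrodites the dosage compensation complex, which is related to condensin, spreads over both X chromosomes and lowers their transcription. The complex is loaded at recruitment sites on X that share a DNA motif called MEX, whose core is GCGCAGGG. X is also rich in tRNA genes and in short unclassified non-coding RNA genes. RNA polymerase III transcribes tRNA genes from promoter elements inside the gene, among them the B box, a conserved stretch near the end of the gene.

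The sequences that follow come from sites picked for a pattern or a shared run, and not all of these sites are strong. Positions are on the WBcel235 assembly, and the sites are numbered X1 to X235 by falling signal. Sites X1, X3 and X26 are shown because they share one sequence although they lie up to 2859783 bp apart. The capitals mark a match to the B box pattern GTTCNANNC.
Site X1, chrX:6207834-6207928 on the plus strand: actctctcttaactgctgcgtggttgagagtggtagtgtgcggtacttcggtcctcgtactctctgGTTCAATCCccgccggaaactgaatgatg
Site X3, chrX:3348029-3348123 on the plus strand: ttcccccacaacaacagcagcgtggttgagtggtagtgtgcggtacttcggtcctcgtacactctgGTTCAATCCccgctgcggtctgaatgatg
Site X26, chrX:3914464-3914558 on the minus strand: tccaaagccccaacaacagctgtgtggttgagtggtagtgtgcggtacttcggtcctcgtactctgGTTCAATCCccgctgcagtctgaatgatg
Each of the 3 summits lies in an annotated non-coding RNA gene of no stated kind. Site X1 is in C14F11.14, site X3 in ZK816.8 and ZK816.9, and site X26 in T22B2.9 and T22B2.12. The longest identical run within 100 bp of the summits was 34 bp between X1 and X3, 36 bp between X1 and X26 on opposite strands, and 39 bp between X3 and X26 on opposite strands. How reads from such near-identical stretches were placed is not given in the sources used here. With no test run, the B box pattern itself stood at 25 of 235 X sites (10.6%), 92 of 908 autosomal sites (10.1%), 8.07% of other X candidates and 8.09% of X flanks. At the 110 X sites near small RNA genes it stood at 103 (93.6%).

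The next 8 sites are shown because they hold GCGCAGGG, the core of the MEX motif, which is in capitals. Sites X5 and X13 hold it at 2 places each, so there are 10 stretches.
Site X4, chrX:1837872-1837919 on the plus strand: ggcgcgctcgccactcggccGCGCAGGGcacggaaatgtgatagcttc
Site X5, chrX:806654-806701 on the plus strand: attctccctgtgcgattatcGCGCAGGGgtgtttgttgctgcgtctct
Site X5, chrX:806730-806777 on the plus strand: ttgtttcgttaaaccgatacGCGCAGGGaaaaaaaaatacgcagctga
Site X6, chrX:5429570-5429617 on the plus strand: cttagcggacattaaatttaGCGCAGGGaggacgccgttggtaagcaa
Site X13, chrX:6296528-6296575 on the plus strand: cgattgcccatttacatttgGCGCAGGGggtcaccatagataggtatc
Site X13, chrX:6296556-6296603 on the plus strand: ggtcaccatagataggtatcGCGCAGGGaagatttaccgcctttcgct
Site X29, chrX:4209246-4209293 on the minus strand: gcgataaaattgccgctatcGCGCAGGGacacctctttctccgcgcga
Site X87, chrX:954891-954938 on the minus strand: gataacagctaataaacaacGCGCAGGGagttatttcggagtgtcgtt
Site X111, chrX:2997103-2997150 on the minus strand: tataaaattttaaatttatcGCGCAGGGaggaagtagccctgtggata
Site X118, chrX:1223894-1223941 on the minus strand: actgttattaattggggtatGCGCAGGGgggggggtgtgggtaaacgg
Among the 10 stretches, 4 have the letters TC before the core and 3 have AG after it, as the longer MEX consensus does, and 7 have C before it. 

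The intergenic site X2 and the promoter sites X14 and X17 are shown for GAGAGA, the most frequent of the 10 words searched at the X sites. The capitals mark GAGAGA or its reverse complement.
Site X2, chrX:351563-351663 on the plus strand: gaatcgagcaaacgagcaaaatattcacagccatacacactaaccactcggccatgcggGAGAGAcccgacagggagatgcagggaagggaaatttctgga
Site X14, chrX:7823213-7823313 on the plus strand: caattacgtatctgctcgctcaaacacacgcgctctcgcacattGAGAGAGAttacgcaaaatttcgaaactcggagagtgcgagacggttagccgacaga
Site X17, chrX:11297129-11297229 on the plus strand: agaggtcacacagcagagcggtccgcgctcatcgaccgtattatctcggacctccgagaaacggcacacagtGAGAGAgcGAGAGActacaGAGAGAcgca
The intergenic sites X7 and X10 are shown as examples of repeats. The capitals mark a run of 59 bp that both windows hold.
Site X7, chrX:1375235-1375395 on the plus strand: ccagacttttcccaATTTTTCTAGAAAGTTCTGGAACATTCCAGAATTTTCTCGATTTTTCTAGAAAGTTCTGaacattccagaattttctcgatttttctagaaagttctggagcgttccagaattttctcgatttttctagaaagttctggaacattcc
Site X10, chrX:2057919-2058079 on the plus strand: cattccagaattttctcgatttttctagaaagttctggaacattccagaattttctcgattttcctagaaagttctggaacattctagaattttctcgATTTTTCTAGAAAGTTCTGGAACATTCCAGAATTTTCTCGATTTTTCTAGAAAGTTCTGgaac
Both windows are wholly repeat-masked in the reference, and both hold the heat shock element, searched as alternating TTC and GAA units with 2 bases between units. Such a run of 3 units stood at 3 of 235 X sites (1.28%) and 8 of 908 autosomal sites (0.881%; Fisher's exact test, two-sided, p = 0.706). It stood at 0.872% of other X candidates and 1.55% of other autosomal candidates. The element was not among the 10 words set beforehand. Sites X7 and X10 are among the 3 X sites and share the 59 bp run, so they are not independent.

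The signal, a value of the authors' peak caller with no stated scale, is used here only to rank and describe sites. Over both replicates together it had a median of 83.6 at the X sites (quartiles 75.1 and 100.8, range 4.76 to 504.8) and 83.3 at the autosomal sites (quartiles 74.4 and 99.3, range 34.7 to 528.5). A signal above 150 was reached by 12 X sites (5.11%) and 87 autosomal sites (9.58%). These values helped to choose the sites and are not tested. A smaller share of the X sites was very strong, while the medians lay close together.

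**Figure D1:**
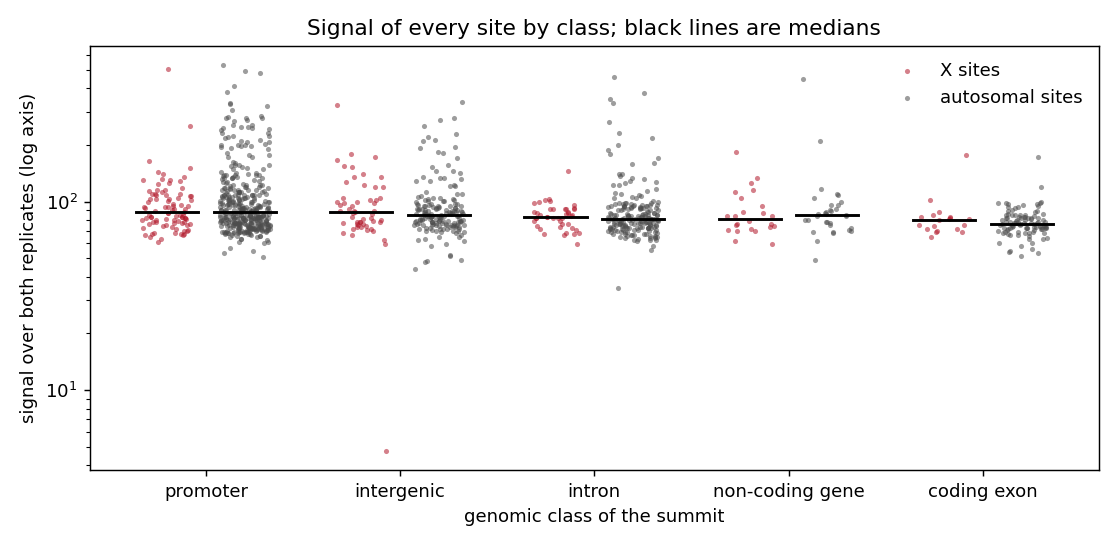
Signal over both replicates (log axis, no unit stated) of every X site (red, left in each pair) and autosomal site (grey, right) by genomic class, for the 5 largest classes; each point is 1 site and black lines are medians. Medians of X and autosomal sites are close in every class shown, from 79.99 and 76.5 in coding exons to 88.5 and 84.7 between genes, and a single X site, X235, lies far below the rest at 4.76.

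The strongest site, X1, had a signal of 504.8 over both replicates, with 233.1 in replicate 1 and 270.9 in replicate 2. Its summit is 177 bp from the 5′ end of T13C5.6 and inside C14F11.14. Site X3 had 252.9, with 143.1 in replicate 1 and 113.1 in replicate 2, and its summit is 310 bp from the 5′ end of ZK816.3. Site X26 had 125.8, with 77.2 in replicate 1 and 54.96 in replicate 2. The 3 sites that share the sequence thus include the first and the third of all 235 by signal.

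Of the 20 strongest X sites, 7 had summits in the promoter class, which reaches 1000 bp upstream and 200 bp downstream of the 5′ end of a protein-coding transcript. Beside X1 and X3 these were gly-13, sms-2, eef-1A.2, spc-1 and inx-2. The site at gly-13, which encodes an N-acetylglucosaminyltransferase of N-glycan synthesis, had a signal of 163.3, with 91.6 in replicate 2 and no candidate in replicate 1. The site at sms-2, a sphingomyelin synthase gene, had 151.3, with 70.6 in replicate 1 and 70.3 in replicate 2. The site at eef-1A.2, which encodes a translation elongation factor, had 143.7, with 65.2 in replicate 1 and 81.4 in replicate 2. These genes serve glycan, lipid and protein synthesis, and the next pair serves the membrane skeleton and cell contacts. The site at spc-1, the alpha spectrin gene, had 139.9, with 72.8 in replicate 1 and 62.5 in replicate 2. The site at inx-2, an innexin gene whose protein forms gap junctions, had 135.8, with 67.9 in replicate 1 and 68.1 in replicate 2. Apart from gly-13, each of them passed the threshold in both replicates' own lists.

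Intergenic summits made up 9 of the 20 strongest sites. Site X2, 2006 bp from the 5′ end of sor-3, had a signal of 325.7, with 154.4 in replicate 1 and 164.8 in replicate 2. Site X5, 3919 bp from gtr-1, had 178.0, with 71.7 and 105.9 in replicates 1 and 2. Site X7, 3303 bp from fbxa-190, had 173.3, with 64.4 and 103.5 in replicates 1 and 2. The others were X8 near Y15E3A.5 (165.7), X10 near Y102A11A.1 (155.1), X11 and X16 near C36E6.8 (151.7 and 139.5), X18 near F49H12.7 (135.0) and X19 near gst-11 (134.8). Of these 9 sites, X7, X10, X11, X16 and X18 lay in windows that were over 50% repeat-masked. Sites X11 and X16 are 2068 bp apart and share a run of 75 bp.

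The remaining sites of the 20 were in genes. Site X4, in the pseudogene T26C11, had a signal of 182.4, with 72.8 in replicate 1 and 100.99 in replicate 2. Site X20, in the non-coding RNA gene C30E1.9, had 133.1, with 59.8 in replicate 1 and 84.9 in replicate 2. Site X6, in a coding exon of the polyketide synthase gene pks-1, had 177.1, with 70.1 in replicate 1 and 116.4 in replicate 2. These 3 were in the thresholded list of each replicate. Site X13, in an intron of mom-1, whose product is needed to secrete Wnt ligands, had 145.3, with 31.1 in replicate 1 and 111.5 in replicate 2, and was in the thresholded list of replicate 2 and not in that of replicate 1.

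Taken per replicate, 26 of 235 X sites (11.1%) were in the thresholded lists of both replicates, 15 in that of replicate 1 alone, 48 in that of replicate 2 alone and 146 (62.1%) in neither. Of the 908 autosomal sites 109 (12.004%) were in both and 579 (63.8%) in neither. The authors' conservative list held 151 X sites (64.3%) and 595 autosomal sites (65.5%). Processed by itself, that list has 182 X and 753 autosomal sites away from small RNA genes. Shares and differences given for it below are over these. Among the 59 strongest X sites 25 were in both replicates' lists, and among the 59 weakest none was. The signal of the 224 X sites that were ranked candidates in each replicate ranged over 19.1 to 233.1 in replicate 1 (median 44.0 over every X site with a candidate there) and 15.5 to 270.9 in replicate 2 (median 42.7 on the same basis). Across these sites the signals of the replicates had a Spearman rho of 0.18 and a Pearson r of 0.69, against 0.14 and 0.76 across 893 autosomal sites. These are descriptions across sites of 1 pair of libraries, at sites chosen on ranks from the same libraries. Within this selected set the rank order was thus shared little, which does not measure agreement over all candidates. The higher Pearson values take in a few sites of very high signal. Sites X48 and X235 count with the same peak of each replicate.

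**Figure D2:**
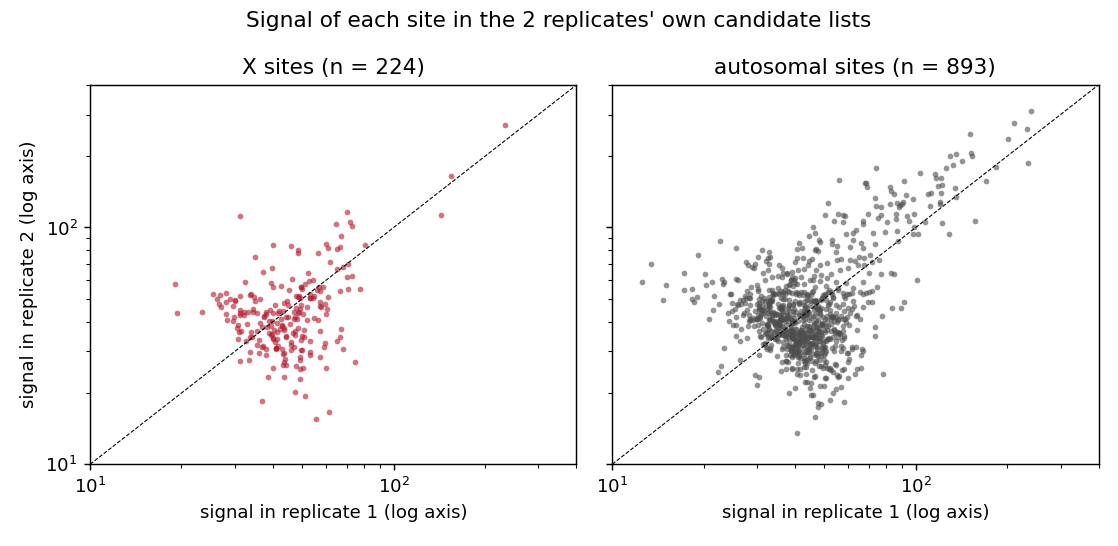
Signal in replicate 2 (vertical, log axis) against signal in replicate 1 (horizontal, log axis) at 224 X sites (left) and 893 autosomal sites (right) that are candidates in each replicate's own ranked list; the dashed line marks equal values. A few X sites lie high on the line, up to 233.1 and 270.9, and the bulk forms a cloud with little slope.

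Near the threshold the X sites just inside the list were at T14B1.1 (signal 67.4, IDR 0.00978), near srg-37 (73.1, IDR 0.00977) and in a coding exon of H13N06.2 (74.96, IDR 0.00974). The sites just outside were in an intron of unk-1 (70.2, IDR 0.0100), a coding exon of sym-4 (78.6, IDR 0.0101) and the promoter of Y15E3A.5 (79.4, IDR 0.0102). Signals on both sides of the threshold overlap. The site of lowest signal, X235, had 4.76 over both replicates. It lies 209 bp from site X48, whose signal was 104.8, and both overlap the same peak of each replicate (49.4 in replicate 1 and 55.9 in replicate 2), so X235 has no replicate values of its own.

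X held 20.6% of all sites away from small RNA genes (235 of 1143, 95% Wilson interval 18.3 to 23.0). It has 17.7% of the nuclear genome length, 13.7% of protein-coding genes and 15.6% of the other candidates. Of the sites at small RNA genes it held 31.7% (110 of 347). The density was 13.3 sites per Mb on X, against 13.9, 13.6 and 13.0 on I, II and III and 8.17 and 8.08 on IV and V. X thus had a density within 1 site per Mb of chromosomes I to III. The share is part of how the sites were chosen and carries no test.

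The genomic class of the summits differed between X and the autosomes in non-coding genes and not detectably in the other 6 classes. Non-coding genes here are annotated genes other than the 4 small RNA kinds and piRNA genes, outside coding genes and their promoters. They held 24 of 235 X sites (10.2%, Wilson interval 6.96 to 14.7) and 33 of 908 autosomal sites (3.63%, 2.60 to 5.06; Fisher's exact test, two-sided, p = 0.000144, Benjamini-Hochberg adjusted over 7 classes p = 0.00101). Counted together with genes of the 4 small RNA kinds, they make up 2.99% of X bases and 3.39% of autosomal bases. They held 3.73% of other X candidates and 3.07% of other autosomal candidates. Among n = 235 X sites and 908 autosomal sites, the odds of a site against another candidate being in this class were 2.47 times as high on X as on the autosomes (Wald interval 1.42 to 4.30, adjusted p = 0.00915). In the conservative list, with its own 182 X and 753 autosomal sites, the shares were 8.24% on X and 3.85% on the autosomes (Fisher's exact test, adjusted p = 0.0673).

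Of the 24 X sites in non-coding genes, 20 were in genes annotated as ncRNA and 4 in pseudogenes, against 15 in ncRNA genes, 15 in pseudogenes and 3 in lincRNA genes on the autosomes. X has 2520 ncRNA genes and 178 pseudogenes, and the autosomes have 5244 and 1950. The strongest were X4, X20 and X26, given above. Some share a gene, since X20 and X105 both lie in C30E1.9 and X96 and X187 both in the pseudogene CE7X_3. When summits inside promoters and coding genes were counted too, 46 X sites (19.6%) and 80 autosomal sites (8.81%) lay in a non-coding gene (Fisher's exact test, two-sided, p = 1.11e-05, a count added after the values were seen). Of these, 16 on X and 33 on the autosomes were in promoters. The share of bases and of other candidates was not counted on this wider basis. X has 17.7% of the nuclear genome length but 2520 ncRNA genes against 5244 on the autosomes, so the background differs too. Whether the difference between sites exceeds that background was not tested. Of the 46 X sites, 5 held the B box pattern, so the sequence shared by X1, X3 and X26 is not common to them.

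Promoters were the largest class, with 90 X sites (38.3%) and 393 autosomal sites (43.3%; adjusted p = 0.267 in Fisher's exact test), while 21.8% of X bases and 27.2% of autosomal bases are promoter. Intergenic summits made up 55 X sites (23.4%) and 174 autosomal sites (19.2%; Fisher's exact test, adjusted p = 0.267), against 29.3% and 20.1% of bases. Introns held 43 X sites (18.3%) and 199 autosomal sites (21.9%), and coding exons held 19 X sites (8.09%) and 11.1% of autosomal sites. The 3′ UTR class had 3 X sites, in C34F6.7 (88.6), C33E10.10 (70.2) and ain-1 (53.1), and the 5′ UTR class had 1, in smex-2 (80.7). With a promoter of 500 bp in place of 1000 bp, X had the lower promoter share (25.96% against 34.7%) and the higher intergenic share (32.3% against 24.0%; Fisher's exact test, adjusted p = 0.0293 for each). The strongest intron sites after mom-1 were in inso-1 (103.8) and in daf-12 (101.6), the gene of a nuclear hormone receptor for dafachronic acids. The strongest coding exon sites after pks-1 were in F13C5.2 (102.0) and eat-20 (88.0).

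**Figure D3:**
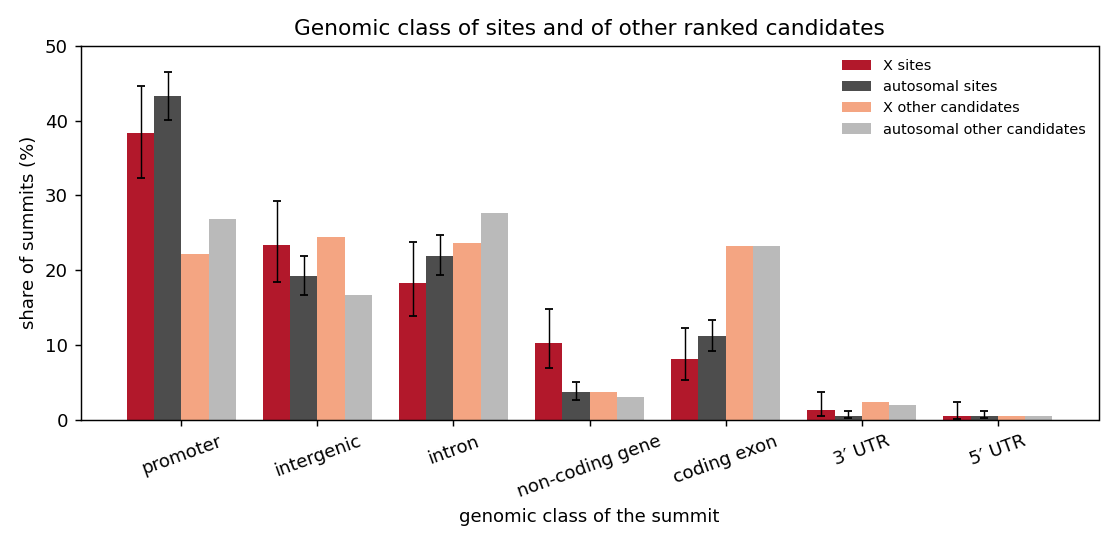
Share of summits in each genomic class (vertical, percent) for X sites (red), autosomal sites (dark grey), other X candidates (light red) and other autosomal candidates (light grey); error bars are 95% Wilson intervals over sites. In non-coding genes the X sites stand at 10.2%, against 3.63% of autosomal sites, and in promoters at 38.3%, against 43.3%.

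Promoter sites on X seldom served more than 1 gene. A summit lay in promoter windows of several genes at 6 of 90 X promoter sites (6.67%) and 120 of 393 autosomal promoter sites (30.5%; Fisher's exact test, two-sided, p = 5.00e-07). The same held for the other candidates, with 4.60% on X and 11.97% on the autosomes. The ratio of the odds ratios, with n = 90 X promoter sites, was 0.491 (Wald interval 0.210 to 1.15, p = 0.0996), so the difference between sites was not shown to exceed that between candidates. The 6 X sites were at ile-2 and trap-2, git-1 and mboa-7, C34D10.5 and unk-1, cdf-2 and myo-2, sec-22 and stau-1, and C44H4.4 and tap-1. In the promoter class the median distance to the nearest 5′ end was 315.5 bp on X and 211 bp on the autosomes. This comparison was also added after the values were seen.

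A member summit lay in the promoter window of 96 of 2731 protein-coding X genes (3.52%), and a site summit in that of 504 of 17242 autosomal genes (2.92%). The gene lists are read against the first of these shares, with no test. Genes entered the lists by symbol, and a gene counts as having a site only where a summit lies in its promoter window. Of the 6 X-linked genes of the X signal and dosage compensation list, ceh-39 and fox-1 had a site, while sdc-1, sdc-2, sex-1 and xol-1 had none. The site at ceh-39, a homeobox gene that acts as an X signal element, had a signal of 93.4, with 41.5 in replicate 1 and 43.4 in replicate 2. The promoter site at fox-1, an X signal element that encodes an RNA-binding protein, had 83.1, with 49.8 in replicate 1 and 34.8 in replicate 2. Neither promoter site was in the thresholded list of a replicate, and both were in the conservative list. An intron of fox-1 holds a further site, X86, 1094 bp from the nearest 5′ end. Its signal was 91.1, and it was likewise in the conservative list and in neither replicate's thresholded list. Among 23 X genes taken into the homeobox list by symbol, not by domain, only ceh-39 had a site in its promoter.

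Of 23 nuclear hormone receptor genes with nhr names, 3 had a site in the promoter window, nhr-48 (131.7), nhr-1 (83.2) and nhr-40 (66.4). The receptor gene daf-12 has no nhr name and is not among the 23, and sites in introns of nhr genes are not counted. Of 2 cytosolic ribosomal protein genes on X, rpl-25.1 had one (72.8) and rpl-11.2 had none. No site fell in the promoters of 33 genes with collagen-type names (col, dpy, rol, sqt or bli), 34 neuropeptide genes, 28 chemoreceptor genes, 35 ligand-gated or potassium channel genes, 5 vitellogenin genes, 6 helix-loop-helix genes and 3 T-box genes. The lists are small against a background of 3.52%, so most of these zeros and single counts lie close to it. The tag is on a copy of T27A8.2 in the transgene. How reads from that copy were placed is not given in the sources used here. At the gene's own locus, chrX:16057676-16058945, no site lay within 5000 bp. The nearest was 14528 bp away in a coding exon of col-187 (82.9), and the strongest candidate within 5000 bp had a signal of 40.5. At tab-1 a site lay 2864 bp away in the promoter of F31E8.4 (74.7).

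Along X the sites were sparse in the middle and dense toward both ends. From the left end, 10 bins of equal length held 25, 35, 23, 22, 18, 13, 12, 22, 33 and 32 sites. The central 50% of X held 88 of 235 sites (37.4%, Wilson interval 31.5 to 43.8), and that of the autosomes 428 of 908 (47.1%, 43.9 to 50.4; Fisher's exact test, two-sided, p = 0.00812). Among single autosomes the share ran from 44.7% on III to 50% on II. The same stretch of X held 40.4% of its other candidates, 52.9% of its protein-coding genes and 57.3% of its sites at small RNA genes. The central 50% of the autosomes held 39.6% of their other candidates. X sites thus lay near the candidates of X, while autosomal sites were more central than theirs. With n = 235 X sites, the odds of a site against another candidate being central were 0.65 times as high on X as on the autosomes (Wald interval 0.483 to 0.874, p = 0.00441). In the conservative list the shares were 39.01% and 46.1% (Fisher's exact test, p = 0.0966). The sites thus followed the candidates of X more closely than its genes.

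**Figure D4:**
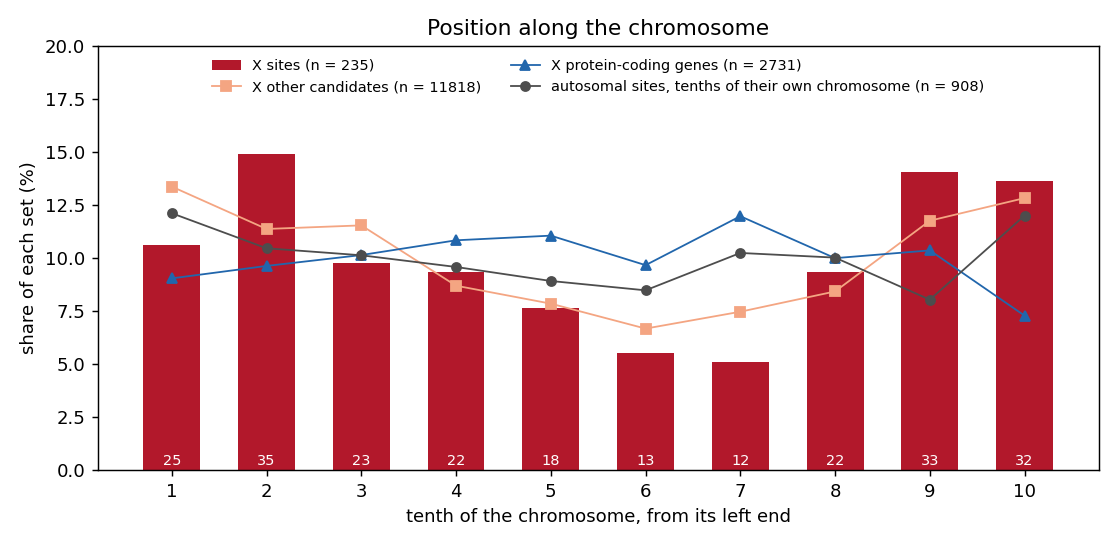
Share of each set (vertical, percent) in 10 equal bins along the chromosome from its left end, for 235 X sites (red bars, counts in white), 11818 other X candidates (squares), 2731 protein-coding X genes (triangles) and 908 autosomal sites in bins of their own chromosomes (circles). The X sites are lowest in the sixth and seventh bins, with 13 and 12 sites, where 9.67% and 11.97% of the X genes lie.

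Neighbouring X sites had a median distance of 43382.5 bp, against 51361 bp on the autosomes. The longest stretch with no site ran over 727038 bp, between summits at 9668794 and 10395832. The densest run held 6 sites within 20.5 kb at smex-2, igcm-4, Y102A11A.1 and F49H12.7, with summits from 2038218 to 2058751 and signals of 73.6 to 155.1. It includes the repeat sites X10 and X18. Runs of at least 25 bp shared with another site of the same set were found at 17 X sites (7.23%). Within single autosomes, which are sets of 143 to 209 sites, the share ran from 13.9% on I to 16.2% on III, and it was not tested. Sites X48 and X235 share their run because their windows overlap.

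The X sites were rich in G and C. Within 100 bp of the summit to either side the mean G + C content was 50.8 ± 6.25% at X sites and 48.1 ± 7.59% at autosomal sites (SD over 235 and 908 sites), a difference of 2.67 percentage points (95% interval 1.73 to 3.61). In flanks centred 500 bp away it was 35.5% and 37.2%, at the other candidates 39.8% and 39.5%, and over whole chromosomes 35.2% and 35.5%. The rise above the flanks was therefore present on both, and larger on X. At promoters the means were 52.3% on X and 46.9% on the autosomes, 5.43 points apart (4.09 to 6.78), while in coding exons they were 51.3% and 52.0%.

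Repeats moved with this difference. On average 15.6% of the window was repeat-masked at X sites and 27.7% at autosomal sites, a difference of -12.1 points (95% interval -15.6 to -8.72), against 24.2% and 33.5% at the other candidates. In the 77 X windows and 213 autosomal windows with no masked base the G + C content was 51.8% and 52.2%, so there the sign turned (difference -0.34, interval -1.74 to 1.07). That restriction was added after the values were seen, and the part of repeats in the other differences was not tested beyond it.

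**Figure D5:**
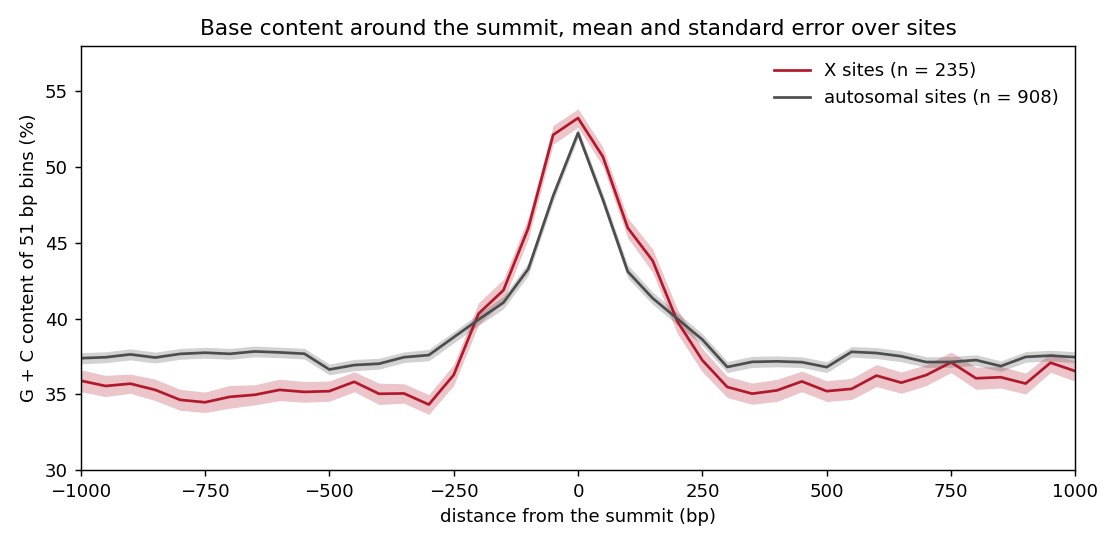
Mean G + C content (vertical, percent) of 51 bp bins against the distance from the summit (horizontal, bp) for 235 X sites (red) and 908 autosomal sites (grey); shading is the standard error over sites. At the summit X stands at 53.2% and the autosomes at 52.3%, and 500 bp to the left at 35.2% and 36.6%.

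Of the 10 words searched on both strands of the same windows, GCGCAGGG and TTTCAG differed between X and the autosomes. GCGCAGGG stood at 8 of 235 X sites (3.40%, Wilson interval 1.73 to 6.57) and 2 of 908 autosomal sites (0.220%, 0.0604 to 0.800; Fisher's exact test, two-sided, p = 8.83e-05, adjusted over 10 words p = 0.000441). It stood at 1 of 470 X flanks and none of 1816 autosomal flanks, and at 0.178% of other X candidates and 0.0925% of other autosomal candidates. The ratio of the odds ratios, over n = 235 X sites and 908 autosomal sites, was 6.94 with a wide interval (1.55 to 31.1, adjusted p = 0.0572). Counted over the sequence, the word occurs 81 times on X (4.57 per Mb) and 233 times on the autosomes (2.82 per Mb). Inside the called regions of the sites, which differ in width from the windows, lay 10 of the 81 (12.3%) and 3 of the 233 (1.29%; Fisher's exact test, two-sided, p = 0.000118), while inside all ranked candidates lay 43.2% and 44.2%. Sites X5 and X13 hold 2 of these occurrences each, which the test counts as independent. The count also reuses sites of the test above, so it is not a separate result. GCGCAGGG thus stood at a small group of X sites, and its ratio against the other candidates did not pass.

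Of these 8 sites, X4, X5, X6, X13 and X29 were among the 59 strongest X sites and the other 3 among the next 59. Their signals were 182.4, 178.0, 177.1, 145.3, 122.6, 91.0, 84.9 and 83.6, the last 3 at X87, X111 and X118. All 8 lay in the left 4 of the 10 bins, which held 25, 35, 23 and 22 of all 235 X sites. This placement was not tested, and the position of the other copies of the word along X was not counted. Apart from X118, all were in the conservative list. Site X29 was intergenic near F20B6.9, and site X87 lay in the promoter of apm-3, which encodes a subunit of an adaptor complex for vesicle transport. Sites X111 and X118 were in introns of Y41G9A.17 and C46H3.2. The word lay 91 bp from the summit at X6, beyond the end of its called region, and within 56 bp at the other 7. The 2 autosomal sites with the word were in introns of moe-3 on II (70.2) and srh-298 on V (90.2).

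TTTCAG, the consensus of the 3′ splice site in C. elegans, stood at 13 X sites (5.53%) and 158 autosomal sites (17.4%; Fisher's exact test, two-sided, adjusted p = 1.04e-05). In flanks it stood at 31.9% and 35.1%, and at 28.2% and 33.7% of the other candidates, so summits held it less often on both. Over the same n = 235 X sites the ratio of the odds ratios was 0.373 (Wald interval 0.209 to 0.664, adjusted p = 0.00801). At promoter sites the shares were 4.44% on X and 20.4% on the autosomes. In introns they were 6.98% and 16.1%, between genes 3.64% and 13.2%, and in non-coding genes 4.17% and 9.09%. In coding exons the share was 15.8% on both, with only 3 of 19 sites on X. In windows with no masked base it stood at 19 of 213 autosomal sites (8.92%) and at none of 77 X sites (Fisher's exact test, adjusted p = 0.0508).

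The other 8 words had adjusted p-values of 0.229 and above. GAGAGA stood at 68 X sites (28.9%, Wilson interval 23.5 to 35.04) and 214 autosomal sites (23.6%, 20.9 to 26.4), against 9.57% and 10.5% of flanks. In the conservative list its shares were 31.9% and 22.7% (Fisher's exact test, adjusted p = 0.0412). GCGCGC stood at 33 X sites (14.04%) and 123 autosomal sites (13.5%), against 0.638% and 1.76% of flanks. At an IDR of at most 0.001 the shares of GCGCGC were 8.89% of X sites and 25.97% of autosomal sites (Fisher's exact test, adjusted p = 0.0395). CCGCCC stood at 12.3% of X sites and 16.1% of autosomal sites. TAATTA, a core bound by many homeodomain proteins, stood at 12 X sites (5.11%) and 54 autosomal sites (5.95%), against 9.57% and 8.81% of flanks. GAGAGA and GCGCGC were thus more frequent at summits than in flanks on X as on the autosomes, and TAATTA was not. Summits and flanks also differ in G + C content, with 50.8% and 35.5% on X and 48.1% and 37.2% on the autosomes. The part of base content in these word shares was not tested.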

How the data were processed

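Peak lists of both replicates labelled tab-1 were analysed, on ce11 per the labels. No interval rests on read depth, which, like the aligner and peak caller, is not given in the sources used here. The deposited signal is the authors' peak caller value, used only within a list. A higher deposited score means a lower IDR, and the authors' ranked lists hold −log10 of global IDR values as well; the lowest score in the list, 830, lies at an IDR of 0.01, read from the values. Peaks overlapping by 1 bp were merged, and a site kept its strongest summit. Genes came from Ensembl release 115 and sequence from the RefSeq copy of WBcel235, whose chromosome ends lie beyond every peak. Each summit took the first class that applied, in the order promoter, UTR or coding exon (5′ UTR first, 3′ UTR last), intron, non-coding gene, then intergenic. Tests treat sites of 1 pooled list as independent, so p-values measure counting over sites, not spread between replicates. Shares have Wilson intervals, ratios of odds ratios add 0.5 to each cell, and a difference passed at an adjusted p under 0.05 or an interval without 0. The steps were tested on simulated data. Sites are named by this rule: the 20 strongest, the 3 strongest of each class and gene list, and those with GCGCAGGG. Those at the T27A8.2 locus, at dosage compensation genes and at the threshold are named too. X26 and the sites listed for shared promoters were chosen after their values were seen. The sites, words and lists were chosen with earlier results of these data known. Alternatives were the conservative list, each replicate's own list, a stricter IDR, other distances, windows and promoters, and unmerged peaks. Python 3.11.15, pandas 2.3.3 and scipy 1.17.1 were used.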

Additional observations from a re-analysis of the deposited data

Results flagged for a closer look

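Differences between X and the autosomes that also differed from those of the other ranked candidates were seen for 3 measures. The ratio of odds ratios, X over autosomes, was 2.47 for summits in non-coding genes, 0.373 for the word TTTCAG and 0.65 for the central 50% of the chromosome, each tested against a ratio of 1 as given above. For the central 50%, X sites (37.4%) lay near the other X candidates (40.4%). Autosomal sites (47.1%) lay above the other autosomal candidates (39.6%). The site sets and the candidate sets come from the same libraries.

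Candidates that pass the score of the list and are nevertheless not in it form a second group. On X there were 27 of them away from small RNA genes, with a median signal of 214.5 and a highest of 4800, and 6 of them (22.2%) exceeded the strongest listed X site. On the autosomes such candidates had a median of 150.8 and a highest of 1097, and 12 of them (10.1%) exceeded the strongest listed autosomal site. The strongest on X lay between genes at chrX:15810939-15811223, 6937 bp from the 5′ end of Y7A5A.7, and the next at chrX:11785709-11785929 near Y102F5A.1 had a signal of 2108. Why they are not listed is not given in the sources used here.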

How the results depend on the processing

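Of 92 values recomputed under alternatives, 71 kept their direction and their side of the threshold, or their size for untested values. The share on X stayed within 19.5% and 21.9%, and 26 X sites were in both replicates' lists also when 50% of the shorter region had to overlap. In the conservative list the promoter difference (X minus autosomes) turned to 1.21 points and that of GCGCGC to -0.606, GAGAGA passed the threshold at 9.16, and the non-coding gene difference of 4.39 and the central difference of -7.07 no longer passed. At an IDR of at most 0.001 the GCGCGC difference turned to -17.1 and passed (adjusted p = 0.0395 in Fisher's exact test), and the non-coding (9.45) and central (-10.3) differences did not pass. That set holds only 45 X and 181 autosomal sites. With a promoter of 500 bp the promoter (-8.73) and intergenic (8.33) differences passed. In windows with no masked base, added later, G + C content turned to -0.338, and the central (-8.65), non-coding (8.65), GCGCAGGG (3.90) and TTTCAG (-8.92) differences did not pass; these sets hold fewer sites. The cause of the other changes was not tested.

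With the list of 1 replicate alone the ranges were 19.6 to 21.9% for the share on X, -12.7 to -12.7 points for promoters, 12.1 to 14.9 for intergenic, 2.88 to 4.17 for G + C content, -18.6 to -7.13 for the central 50%, 5.87 to 17.3 for GAGAGA and -14.6 to -7.99 for GCGCGC. They were 3.17 to 6.46 for non-coding genes, 7.30 to 9.30 for GCGCAGGG, -18.3 to -13.5 for TTTCAG and -12.9 to -10.9 for repeat-masked bases. The non-coding difference did not pass in either list (adjusted p 0.527 without replicate 1 and 0.179 without replicate 2, Fisher's exact test). These lists hold fewer sites, with 92 X and 328 autosomal sites without replicate 1 and 43 and 176 without replicate 2. By the same exact test the central difference did not pass without replicate 1 (p = 0.24), nor TTTCAG without replicate 2 (adjusted p = 0.0816). No paired analysis was possible because the study has 1 group. The lists give no depth, so an X site missing from a replicate's list is not shown to be absent there.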
